A study of Mus musculus with 15 samples.

Results

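The enzymes that make and break down prostaglandins were followed through forskolin and rosiglitazone treatment of cultured mouse adipocytes. The set was fixed by gene symbol as 9 genes of 24421 in the count table: Pla2g4a, Ptgs1, Ptgs2, Ptges, Ptges2, Ptges3, Ptgis, Ptgds and Hpgd. All 9 were found, and 8 passed the filter on low counts that left 14421 genes for testing; Ptgds did not. The cell line, called MAP, derives from immortalized adipocyte progenitors of the mouse, and RNA was sequenced from 15 libraries in 5 groups of 3.

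Every group shared the same history. Confluent cells had been differentiated for 2 days with insulin, 500 uM isobutylmethylxanthine (a phosphodiesterase inhibitor that itself raises cAMP), 1 uM dexamethasone and 1 uM rosiglitazone, and then kept for 2 days in insulin with rosiglitazone. Treatment began on day 7 to 8. Cells received vehicle, rosiglitazone over 3 days (Rosi3D), or forskolin over 4 h (FSK4h), over 1 day (FSK1D) or over 3 days (FSK3D). Forskolin activates adenylyl cyclase, so that cAMP rises, and rosiglitazone activates the nuclear receptor PPARγ. The sources used here do not give the treatment doses, the number of clones behind the line or the harvest time of the vehicle cells. All comparisons with vehicle share the same 3 vehicle libraries. No label ties the libraries of a group to separate cultures, so the p-values rest on library-to-library spread that may be only technical. The libraries are named S1 to S15 as in the count table, which is a running number over all groups.

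Prostaglandins are made in steps. A phospholipase frees arachidonic acid from membranes, a cyclooxygenase turns it into prostaglandin H2, and a terminal synthase converts this into prostaglandin E2, D2, F2α or prostacyclin, which act on G protein-coupled receptors of the same or neighbouring cells and are then taken up and oxidized. In adipose tissue prostaglandin E2 is known to restrain lipolysis, prostaglandin F2α to restrain adipocyte differentiation, and Ptgs2 to take part in the recruitment of beige adipocytes in mice. Ptgs2 is a classical early-response gene that cAMP, growth factors and cytokines induce and glucocorticoids repress.

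Depth was uneven, with the fewest counts in S11 of FSK3D (14056200) and the most in S13 of Rosi3D (56282582). The adipocyte markers Adipoq, Fabp4 and Plin1 were abundant in all 15 libraries, with Adipoq between 652 and 2032 counts per 1000000 (CPM, scaled by the trimmed mean of M values, TMM), although the labels give the cell type as progenitor. Summed over the 8 adipocyte markers, CPM ran from 7920 to 8793 in vehicle, 7825 to 8620 after FSK4h, 5790 to 7031 after FSK1D, 11760 to 13000 after FSK3D and 10270 to 10740 after Rosi3D. Cfd weighed heavily in this sum, with means of 4698 CPM in vehicle, 7203 in FSK3D and 2054 in Rosi3D. Cfd and Pparg had their highest mean in FSK3D, but Adipoq, Fabp4, Plin1, Lipe, Cidec and Retn had theirs in Rosi3D. The 9 progenitor or fibroblast markers, of which Col1a1 gave most of the counts, summed to 3956 to 4099 CPM in vehicle, 3531 to 4239 over the 9 forskolin libraries and 2432 to 2875 in Rosi3D, and single members went different ways. Pdgfra averaged 208.5 CPM in vehicle and 373 in FSK4h, Pdgfrb 402 and 154, and Ly6a 121 in vehicle, 431 in FSK1D and 74.9 in Rosi3D. Their part in the results was not tested, and in bulk RNA fewer cells of a type and less RNA per cell cannot be told apart. The share of the ribosomal RNA precursor Rn45s was 8.50% to 8.57% in vehicle and 4.15% to 5.79% in FSK3D, and leaving it out changed no call among the 9 genes.

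After 4 h of forskolin Pla2g4a, Ptgs1, Ptgs2 and the prostaglandin E synthases Ptges and Ptges3 were higher than in vehicle. Ptgs2 was 6.32-fold higher, and Ptges2, also an E synthase, was not called (edgeR adjusted p = 0.0813). Hpgd was called lower, on 4 counts in that group, a call that was lost without vehicle S3 (edgeR adjusted p = 0.112) or FSK4h S5 (0.0671). By 3 days only Ptgs1, Ptges and Ptges2 were above vehicle and Ptgs2 was below it. Rosiglitazone for 3 days lowered both cyclooxygenases and Pla2g4a and raised Ptges and Ptges2. Hpgd was also called higher there, from low counts and with all 3 libraries above the minimum of the filter in that group alone. Of the 8 tested genes, 5 rose and 1 fell in FSK4h (59.0% of all tested genes were called there, in either direction, at an adjusted p under 0.05 in edgeR's quasi-likelihood test). After FSK1D 4 rose and 0 fell (40.2% of all genes called), after FSK3D 3 rose and 3 fell (52.9%), and after Rosi3D 3 rose and 4 fell (60.6%). Between treatments, 2 were higher and 2 lower in FSK3D than in Rosi3D (43.1%). Between forskolin times, 3 were higher and 3 lower after FSK1D than after FSK4h (57.3%), 1 higher and 5 lower after FSK3D than after FSK1D (51.0%), and 2 higher and 4 lower after FSK3D than after FSK4h (68.5%). With 8 genes these counts are near the share of all genes, so that the number called is not a result about this set, and its members are described below by level, size and time course.

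**Figure D1:**
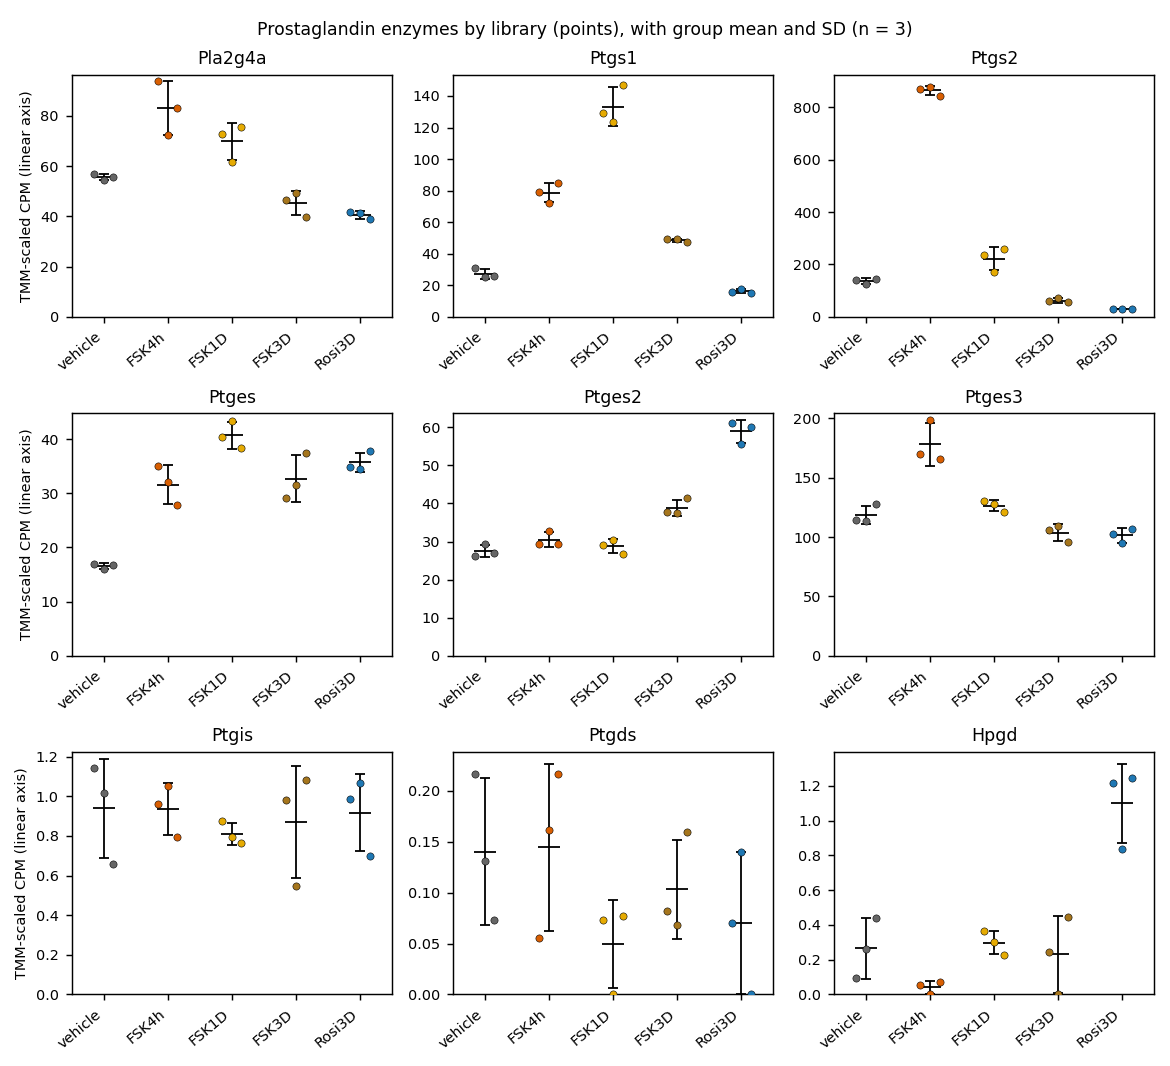
TMM-scaled CPM (vertical axes, linear, from 0, a separate scale in each panel) of the 9 genes in the 15 libraries (points) of the 5 groups, with the mean and SD of 3 libraries (bars). Ptgs2 peaked after FSK4h between 844.9 and 879.9 CPM, Ptgs1 after FSK1D between 124 and 147 CPM, and Ptges2 and Hpgd after Rosi3D, while Ptgds stayed at or below 0.216 CPM.

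Ptgs2 (chromosome 1, 150100031 to 150108227, plus strand, GRCm38 in GENCODE vM21, as for all genes below), the inducible cyclooxygenase, had the widest range of CPM in the set. It stood at 140.0, 125 and 146 CPM in the vehicle libraries S1 to S3, at 870.1, 879.9 and 845 CPM after FSK4h, at 236, 172 and 258 CPM after FSK1D, at 59.7, 71.1 and 55.5 CPM after FSK3D and at 29.7, 28.7 and 30.4 CPM after Rosi3D. No library of any group overlapped with another group, and within FSK1D the library S8 was the low one. The log2 fold change against vehicle was 2.66 ± 0.14 (SE) in FSK4h (edgeR adjusted p = 1.12e-08), a change larger in size than that of 98.9% of tested genes, and 0.70 ± 0.13 in FSK1D (adjusted p = 0.00136). It then turned negative, at -1.15 ± 0.14 in FSK3D (adjusted p = 3.24e-05) and -2.21 ± 0.15 in Rosi3D (adjusted p = 1.02e-07). Ptgs2 was thus 4.62-fold lower than vehicle after rosiglitazone, and after 3 days it was 2.08-fold higher under forskolin than under rosiglitazone (1.05 ± 0.15, adjusted p = 0.000163). All 4 neighbouring steps in the order FSK4h, FSK1D, vehicle, FSK3D, Rosi3D were called. Of the 5 mesothelial markers, 1 had high levels in the same group as Ptgs2: Krt19, at 339 to 389 CPM in FSK4h, 84.3 to 90.0 in vehicle and 27.1 to 31.2 in Rosi3D, so that the list summed to 344 to 397, 91.5 to 96.6 and 31.0 to 35.7 CPM. None of the other 4 had a higher mean in FSK4h than in vehicle. Msln averaged 5.77 CPM in vehicle and 4.501 in FSK4h. Like Ptgs2, it was well below vehicle with rosiglitazone (0.933 CPM) and with 3 days of forskolin (1.29 CPM). With 1 day of forskolin Msln was also below vehicle (1.88 CPM), unlike Ptgs2. Lrrn4 averaged 1.57 CPM in vehicle, 1.11 in FSK4h and 3.16 in Rosi3D. Upk3b was at 0.230 CPM or less and Wt1 had no count in any library. The part of such cells in the Ptgs2 result was not tested.

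The start of Ptgs2 is shown because a long noncoding gene, Ptgs2os, starts 68 bases upstream on the other strand and so lies inside the same window. The sequence, from RefSeq on GRCm38.p6 (chr1:150099781-150100080, plus strand), runs 5′ to 3′ from 250 bases before the RefSeq start to 50 bases from it. Capitals mark matches to the motifs searched.

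Ptgs2: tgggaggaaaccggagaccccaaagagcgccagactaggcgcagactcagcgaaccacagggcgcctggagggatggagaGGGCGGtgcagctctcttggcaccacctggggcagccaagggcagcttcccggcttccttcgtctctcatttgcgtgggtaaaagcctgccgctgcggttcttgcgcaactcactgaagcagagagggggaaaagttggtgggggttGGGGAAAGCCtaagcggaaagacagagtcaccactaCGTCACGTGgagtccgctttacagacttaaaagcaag

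Motifs were searched on both strands in the promoters of the RefSeq table, which covered 8 of the 9 genes, and each is given with its share of all 32851 promoters. They were the full cAMP response element TGACGTCA (1.79%), its core TGACG (20.8%), the E-box CACGTG (7.15%), the AP-1 motif TGANTCA (7.81%), the NR4A monomer motif AAAGGTCA (1.51%), TATAAA (13.6%), GGGCGG (35.7%), a loose NF-kappa-B pattern of GGG and CC around 5 free bases (50.8%), and the PPAR-RXR pattern of 2 AGGTCA copies 1 base apart (0.0396%). In the Ptgs2 window the TGACG core lay on the minus strand at bases 14 to 18, counted from the annotated RefSeq start as 1, and overlapped an E-box at bases 17 to 22. The loose NF-kappa-B pattern lay 23 to 14 bases upstream, and GGGCGG 170 to 165 bases upstream. The window held no match to the full response element, to TATAAA or to the PPAR-RXR pattern. Of the other windows, that of Ptges3 also held TGACG on the minus strand, at bases 12 to 16. A match is a description of letters and not evidence of binding.

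Ptgs2os (chromosome 1, 150074873 to 150099963, minus strand) and Ptgs2os2 (150159043 to 150164948, minus strand) flank Ptgs2 without overlapping it in GENCODE vM21. They were chosen for their position after their values were seen. Ptgs2os averaged 4.68 ± 0.510 CPM (SD, n = 3) in vehicle, 9.44 ± 1.26 after FSK4h, 7.23 ± 0.401 after FSK1D, 2.49 ± 0.751 after FSK3D and 1.21 ± 0.330 after Rosi3D, the same order of groups as Ptgs2. Its rise in FSK4h was 1.02 ± 0.17 on the log2 scale (edgeR adjusted p = 4.17e-06), and its fall in Rosi3D was -2.025 ± 0.21 (adjusted p = 4.87e-10). Ptgs2os2 rose by 1.22 ± 0.15 after FSK4h and by 1.08 ± 0.15 after FSK1D, fell by 1.91 after Rosi3D and was not called after FSK3D (-0.17 ± 0.17, edgeR adjusted p = 0.411). The sources used here do not say whether reads were counted by strand, so reads in Ptgs2os may come from transcripts of either strand.

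**Figure D2:**
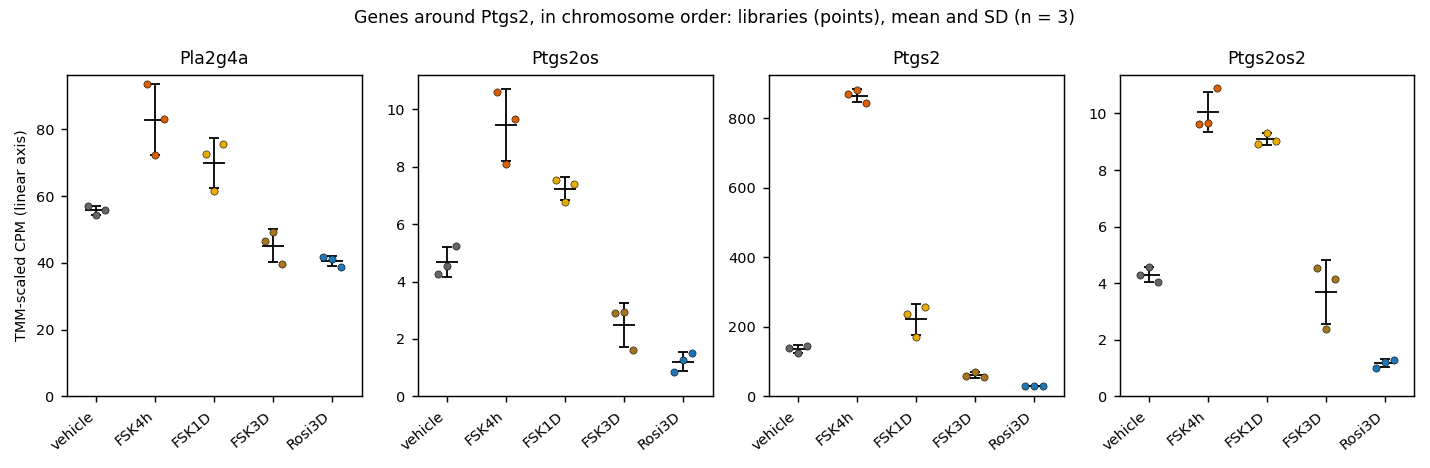
TMM-scaled CPM (vertical axes, linear, from 0, a separate scale in each panel) of Pla2g4a, Ptgs2os, Ptgs2 and Ptgs2os2, in their order on chromosome 1, in each library (points) with the mean and SD of 3 (bars). All 4 had their highest mean in FSK4h and their lowest in Rosi3D, and the range was widest for Ptgs2.

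Pla2g4a (chromosome 1, 149829618 to 149961290, minus strand) encodes the cytosolic phospholipase A2 that frees arachidonic acid, and it starts 138741 bases from the Ptgs2 start. Its CPM were 57.0, 54.4 and 55.8 in vehicle, 93.7, 72.2 and 83.0 after FSK4h, 72.6, 61.6 and 75.6 after FSK1D, 46.5, 49.2 and 39.8 after FSK3D and 41.7, 41.1 and 38.7 after Rosi3D. No treated group overlapped with vehicle. The rise was 1.49-fold in FSK4h (0.58 ± 0.087, edgeR adjusted p = 9.18e-06) and 1.25-fold in FSK1D (0.33 ± 0.088, adjusted p = 0.00521). Under the other scalings, filters and tests the FSK4h rise stayed called, at 0.38 to 0.60. Pla2g4a was lower than vehicle in FSK3D (-0.31 ± 0.091, edgeR adjusted p = 0.00691) and in Rosi3D (-0.46 ± 0.090, adjusted p = 0.000168). The FSK3D call was lost without FSK3D S12 (-0.22, edgeR adjusted p = 0.0578). FSK1D differed from FSK4h by -0.25 ± 0.087 (adjusted p = 0.0186) with overlapping libraries, and that call was lost without FSK4h S4 (-0.15, edgeR adjusted p = 0.128) or FSK1D S8 (-0.17, 0.0937). FSK3D and Rosi3D were not told apart (0.15 ± 0.093, edgeR adjusted p = 0.223).

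Ptgs1 (chromosome 2, 36230426 to 36252272, plus strand), the cyclooxygenase usually described as constitutive, peaked later than Ptgs2. It stood at 30.7, 25.2 and 25.7 CPM in vehicle, 79.1, 72.4 and 84.7 after FSK4h, 129, 124 and 147 after FSK1D, 49.2, 49.0 and 47.4 after FSK3D and 15.9, 17.8 and 15.3 after Rosi3D. No groups overlapped. The gene was 2.89-fold above vehicle after FSK4h (1.53 ± 0.075, edgeR adjusted p = 5.78e-17), 4.89-fold after FSK1D (2.29 ± 0.075, adjusted p = 8.25e-21) and 1.78-fold after FSK3D (0.83 ± 0.078, adjusted p = 2.35e-10). Between FSK4h and FSK1D it rose by a further 0.76 ± 0.070 (adjusted p = 1.47e-10), an interval over which Ptgs2 fell (-1.96 ± 0.13, adjusted p = 1.58e-07). In Rosi3D it fell (-0.75 ± 0.083, adjusted p = 4.51e-09), and at 3 days it was 2.98-fold higher with forskolin than with rosiglitazone (1.58 ± 0.082, adjusted p = 4.94e-16). Beside this, the 8 macrophage markers summed to 4.69 to 5.06 CPM in vehicle, 9.95 to 11.8 after FSK4h, 10.4 to 11.8 after FSK1D and 3.08 to 4.398 after Rosi3D, mostly from Cd14, Csf1r and Cd68. Of the 3 defining markers, Csf1r had the same order of groups as Ptgs1, with means of 0.805 CPM in vehicle, 2.56 at 4 h, 3.07 at 1 day and 1.66 at 3 days of forskolin, and 0.468 with rosiglitazone. The other defining markers, Ptprc and Adgre1, were at 0.156 and 0.0367 CPM or less in every library. The part of such cells in the Ptgs1 result was not tested.

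The Ptgs1 window is shown for comparison with that of Ptgs2, since both genes rose within 1 day of forskolin and fell with rosiglitazone. It comes from RefSeq on GRCm38.p6 (chr2:36230176-36230475, plus strand), with the same span and capitals.

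Ptgs1: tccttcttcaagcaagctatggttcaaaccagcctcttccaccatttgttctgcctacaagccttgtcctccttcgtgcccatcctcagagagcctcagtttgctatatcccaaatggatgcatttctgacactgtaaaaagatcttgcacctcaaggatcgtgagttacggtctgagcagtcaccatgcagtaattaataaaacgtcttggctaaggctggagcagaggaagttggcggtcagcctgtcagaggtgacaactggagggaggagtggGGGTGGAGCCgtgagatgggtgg

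Its single match was the loose NF-kappa-B pattern at bases 28 to 37, a pattern that 50.8% of all windows held.

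With their different timing, the balance of the cyclooxygenases shifted. Per kb of gene length, Ptgs2 made up 77.7% ± 1.89 (SD, n = 3) of the summed Ptgs1 and Ptgs2 level in vehicle, 88.4% ± 1.01 after FSK4h, 53.2% ± 3.70 after FSK1D, 46.8% ± 2.88 after FSK3D and 55.7% ± 2.68 after Rosi3D. FSK4h lay wholly above vehicle (87.3% to 89.4% against 75.9% to 79.7%), and the other 3 groups wholly below it. The summed level was 38.9 to 44.5 CPM per kb in vehicle, 233 to 238 after FSK4h, 84.6 to 114 after FSK1D, 29.9 to 34.3 after FSK3D and 12.7 to 13.1 after Rosi3D. These shares are a description, as an exact two-sided permutation test of 3 against 3 libraries cannot go below p = 0.1.

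**Figure D3:**
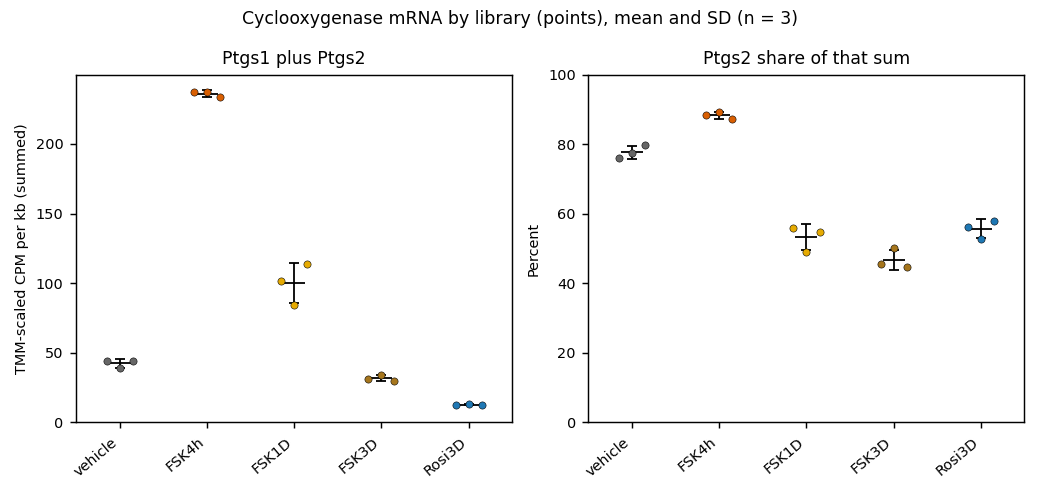
Left, the summed level of Ptgs1 and Ptgs2 (TMM-scaled CPM per kb); right, the Ptgs2 share of that sum (percent). Points are libraries and bars the mean and SD of 3. The sum was highest in FSK4h, where the Ptgs2 share was 88.4%, and lowest in Rosi3D, where it was 55.7%.

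The 3 prostaglandin E synthases each followed a course of their own. Ptges (chromosome 2, 30889471 to 30929863, minus strand), the inducible microsomal enzyme that is coupled mostly to Ptgs2, was the only one of the 9 genes called higher in all 4 treated groups. Its CPM were 16.9, 15.99 and 16.8 in vehicle, 35.0, 32.0 and 27.8 after FSK4h, 40.4, 43.4 and 38.4 after FSK1D, 29.1, 31.6 and 37.5 after FSK3D and 34.9, 34.6 and 37.8 after Rosi3D. Every treated library lay above every vehicle library. The log2 fold changes were 0.93 ± 0.088 after FSK4h, 1.30 ± 0.088 after FSK1D, 0.99 ± 0.090 after FSK3D and 1.11 ± 0.088 after Rosi3D, with edgeR adjusted p between 5.58e-11 and 3.30e-14. FSK1D was above FSK4h (0.36 ± 0.084, adjusted p = 0.000396), while FSK3D was told apart neither from FSK4h (0.054 ± 0.086, adjusted p = 0.588) nor from Rosi3D (-0.12 ± 0.085, adjusted p = 0.267). The last was called without FSK3D S12 (-0.25, edgeR adjusted p = 0.0232).

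Its window is shown because the gene rose under both agents. It comes from RefSeq on GRCm38.p6 (chr2:30903248-30903547, minus strand), at a start inside the longer GENCODE gene.

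Ptges: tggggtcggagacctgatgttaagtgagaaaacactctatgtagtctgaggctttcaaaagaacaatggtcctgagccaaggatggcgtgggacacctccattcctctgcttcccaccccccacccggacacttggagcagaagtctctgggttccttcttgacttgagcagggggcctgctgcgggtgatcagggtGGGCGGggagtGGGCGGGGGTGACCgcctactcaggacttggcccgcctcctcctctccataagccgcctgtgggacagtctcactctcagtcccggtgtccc

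The capitals are GGGCGG at 53 to 48 and at 42 to 37 bases upstream and the loose NF-kappa-B pattern at 38 to 29 bases upstream, which overlaps the second of them.

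Ptges2 (chromosome 2, 32395896 to 32405772, plus strand), a membrane-associated enzyme first named as a prostaglandin E synthase, was at 26.2, 29.3 and 26.9 CPM in vehicle, 29.3, 32.8 and 29.3 after FSK4h, 29.0, 30.4 and 26.8 after FSK1D, 37.7, 37.6 and 41.4 after FSK3D and 61.2, 55.6 and 60.03 after Rosi3D. Only the 3-day groups stood clear of vehicle. It rose by 0.50 ± 0.072 in FSK3D (edgeR adjusted p = 3.52e-07) and by 1.10 ± 0.070 in Rosi3D (adjusted p = 1.44e-15), and was lower in FSK3D than in Rosi3D (-0.60 ± 0.070, adjusted p = 7.75e-09). In FSK4h it was not called (0.15 ± 0.072, edgeR adjusted p = 0.0813). That value depended on scaling: with library size alone it was -0.047 (adjusted p = 0.573), and with RLE factors it was called (0.17, adjusted p = 0.0430), as it was without vehicle S2 (0.0284), FSK4h S6 (0.0492) or FSK3D S12 (0.0492).

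Ptges3 (chromosome 10, 128058954 to 128077272, plus strand) encodes p23, a co-chaperone of HSP90 that also has prostaglandin E synthase activity. It was at 114, 114 and 128 CPM in vehicle, 169.7, 199 and 166 after FSK4h, 130.2, 128 and 121 after FSK1D, 106, 109 and 95.4 after FSK3D and 103, 94.7 and 107 after Rosi3D. FSK4h stood above all other groups, and the 3-day groups just below vehicle. It rose after FSK4h (0.59 ± 0.065, edgeR adjusted p = 1.67e-08), was not called after FSK1D (0.093 ± 0.065, adjusted p = 0.277) and fell after FSK3D (-0.20 ± 0.066, adjusted p = 0.0135) and Rosi3D (-0.22 ± 0.065, adjusted p = 0.00451). Under the other scalings, filters and tests the FSK4h rise stayed called, at 0.39 to 0.61. The falls were lost without vehicle S3 (edgeR adjusted p = 0.109 in FSK3D and 0.0559 in Rosi3D), and that in FSK3D also without FSK3D S12 (0.111). A processed pseudogene, Ptges3-ps, is annotated, and the sources used here do not say how reads matching both were counted. Per kb, Ptges3 held most of the E synthase mRNA, from 78.9% ± 1.02 (SD, n = 3) in FSK4h to 56.5% ± 0.531 in Rosi3D, against 76.5% ± 1.49 in vehicle. The Ptges share was 5.74% ± 0.286 in vehicle and highest in FSK1D, at 12.3% ± 0.452. That of Ptges2 went from 17.8% ± 1.44 in vehicle to 32.9% ± 0.711 in Rosi3D.

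**Figure D4:**
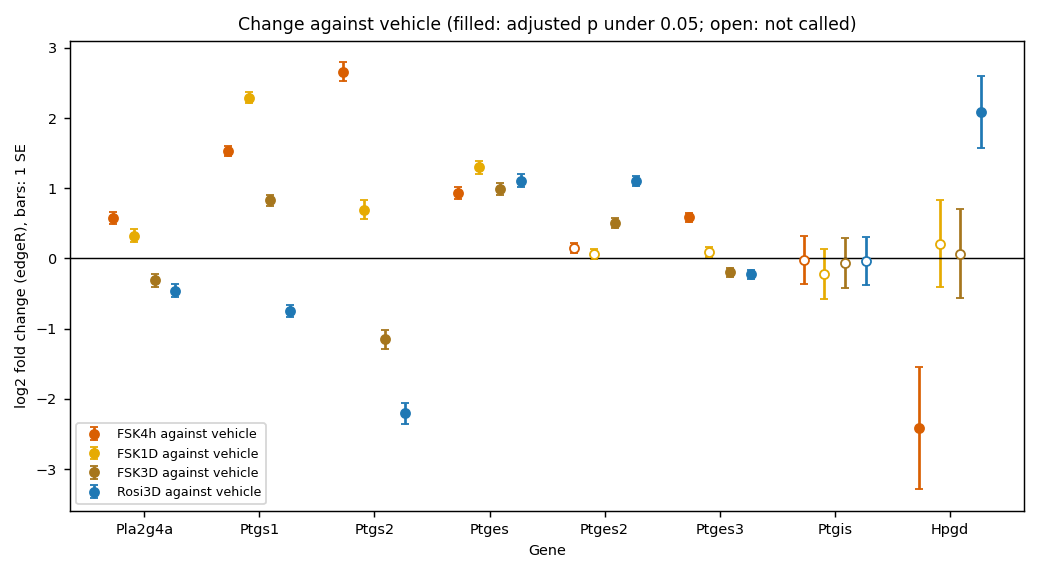
Log2 fold change against vehicle (edgeR, vertical axis) of the 8 tested genes (horizontal axis) after FSK4h, FSK1D, FSK3D and Rosi3D, with 1 SE (bars); filled points passed an adjusted p of 0.05 and open points did not. Ptgs2 ran from 2.66 in FSK4h to -2.21 in Rosi3D, Ptges was above 0 in all 4, and Ptgis was at 0 within its error in all 4.

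The synthases of prostacyclin and prostaglandin D2 were scarce in every group. Ptgis (chromosome 2, 167191805 to 167240604, minus strand), prostacyclin synthase, lay between 0.548 and 1.14 CPM over all 15 libraries, or 8 to 56 counts, and was called in none of the 8 comparisons by edgeR (0 also at an unadjusted p under 0.05). Its FSK4h to vehicle ratio was 0.991 with a counting interval of 0.632 to 1.55 (exact binomial, 95%, on halved counts), so that changes inside those bounds were not detectable at this depth. The noncoding genes that overlap Ptgis in GENCODE are not in the count table. Ptgds (chromosome 2, 25466709 to 25470046, minus strand), the lipocalin-type prostaglandin D synthase, had 13 counts over the 3 vehicle libraries, 12 after FSK4h, 4 after FSK1D, 8 after FSK3D and 7 after Rosi3D. Its Rosi3D to vehicle ratio was 0.577 with a counting interval of 0.120 to 2.44. The libraries FSK1D S8 and Rosi3D S15 had no Ptgds count. There a floor of 3 unhalved counts is 0.114 and 0.117 CPM, and the bound is higher if both mates were counted.

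Hpgd (chromosome 8, 56294585 to 56321043, plus strand), the dehydrogenase that inactivates prostaglandins, was low in all groups but Rosi3D. Its counts were 3, 8 and 12 in vehicle, 2, 0 and 2 after FSK4h, 10, 8 and 6 after FSK1D, 6, 0 and 14 after FSK3D and 69, 18 and 32 after Rosi3D. In CPM the Rosi3D libraries were at 1.21, 0.836 and 1.25, above all 12 others, the highest of which was at 0.445. Rosi3D was also the only group with all 3 libraries above the minimum of the filter (0.371 CPM), so that the filter favoured a difference there. The Rosi3D to vehicle ratio was 4.33, with a counting interval of 2.31 to 8.85 (2.09 ± 0.51 on the log2 scale, edgeR adjusted p = 0.000682). In FSK4h the gene was lower (-2.42 ± 0.87, adjusted p = 0.0170). With 4 counts over that group the fall was 5.92-fold with a counting interval of 1.32 to 54.4, and the call was lost without vehicle S3 (edgeR adjusted p = 0.112) or FSK4h S5 (0.0671). The 6 mast cell markers summed to 6.32 to 8.06 CPM in Rosi3D and 1.67 to 2.27 CPM in vehicle. Cpa3 made up this difference, with a mean of 5.86 CPM in Rosi3D and 0.786 in vehicle, while Kit averaged 1.30 and 1.08 and Cma1 0.0779 and 0.115 CPM, and Mcpt4, Tpsb2 and Fcer1a had no count in any library. The part of such cells in the Hpgd result was not tested.

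Per kb, the levels of the 9 genes in vehicle ran in the order Ptges3 (60.7 CPM per kb), Ptgs2 (33.0), Pla2g4a (18.3), Ptges2 (14.1), Ptgs1 (9.495), Ptges (4.54), Ptgis (0.537), Ptgds (0.174) and Hpgd (0.154). In FSK4h Ptgs2 came first, at 209 CPM per kb against 91.2 for Ptges3. In Rosi3D Ptgs2 had dropped to 7.14 CPM per kb, below Ptges2 (30.2), Pla2g4a (13.3) and Ptges (9.81).

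Over the 15 libraries the log2 CPM of Ptgs2 went with those of Pla2g4a (Pearson's r = 0.953) and Ptges3 (0.935) more than with that of Ptgs1 (0.706) or Ptges (-0.060). These are descriptions over libraries that share treatments and depth. Among all tested genes, those most like Ptgs2 were Inhba (0.995), which encodes an activin subunit, Itprip (0.993) and Runx2 (0.993), a transcription factor of bone. Inhba went from 17.4 ± 1.29 CPM (SD, n = 3) in vehicle to 180 ± 3.01 in FSK4h and 2.83 ± 0.355 in Rosi3D. Nearest to Ptgs1 were Xdh (0.993), the xanthine oxidoreductase, Spidr (0.988) and Tmem45a (0.988). For Ptges2 they were Uqcrq (0.995) and Ndufb5 (0.994), subunits of the respiratory chain, and Acadvl (0.995), an enzyme of fatty acid oxidation. Pla2g4a was closest to Copa (0.977), Aak1 (0.976) and Iqgap1 (0.970), Ptges to Trp53inp2 (0.956), Sipa1l1 (0.951) and Gpi1 (0.942), and Ptges3 to Ddx20 (0.976), Azin1 (0.971) and Pphln1 (0.970). The likeness of the scarce genes was lower, with D130043K22Rik (0.775), Hapln3 (0.758) and March9 (0.730) for Ptgis and Zfyve19 (0.900), 5430416O09Rik (0.898) and Hrct1 (0.896) for Hpgd.

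The genes around these enzymes were read from 8 lists. Among all tested genes 59.0% were called after FSK4h, 40.2% after FSK1D, 52.9% after FSK3D and 60.6% after Rosi3D. Of 14 tested genes for other phospholipases A2 and arachidonate release, 2 rose and 4 fell after FSK4h, 7 and 3 after FSK1D, 8 and 1 after FSK3D, and 8 and 2 after Rosi3D, with median log2 changes of 0.011, 0.41, 0.49 and 0.41 (medians of all tested genes, for this and the next lists: -0.035, -0.019, 0.0088 and -0.012). The 4 most abundant were Mgll, a monoglyceride lipase, Pla2g16, the phospholipase abundant in fat, Pla2g15 and Pla2g12a. Pla2g16 fell from a mean of 157 CPM in vehicle to 84.3 CPM after FSK1D (-0.90 ± 0.084) and was above vehicle after FSK3D (0.51 ± 0.082) and Rosi3D (0.83 ± 0.082). Its low point thus fell at a time when Ptgs1 was at its peak. Of the 8 adipocyte markers, Adipoq, Fabp4 and Plin1 also had their lowest mean in FSK1D, and the rest did not. Adipoq averaged 1528 CPM in vehicle and 693 in FSK1D. A link of Pla2g16 with either was not tested. Mgll and Pla2g12a rose in all 4 treated groups, by 1.16 ± 0.077 and 1.31 ± 0.061 in Rosi3D, and Pla2g15 in all but FSK4h (0.0098). In the list for making and esterifying arachidonate, of 11 tested genes 4 rose and 3 fell after FSK4h, 4 and 5 after FSK1D and after FSK3D, and 7 and 3 after Rosi3D (all genes called: 59.0%, 40.2%, 52.9% and 60.6%), with median log2 changes of 0.048, -0.12, 0.084 and 0.18. Acsl4, which activates arachidonic acid for esterification, rose with Ptgs2, from 187 ± 10.6 CPM in vehicle to 1543 ± 29.3 in FSK4h (3.04 ± 0.054, edgeR adjusted p = 8.03e-31). Unlike Ptgs2 it stayed above vehicle in FSK3D (0.75 ± 0.051) and Rosi3D (0.18 ± 0.051). The desaturase Fads1 fell by 0.57, 0.73 and 0.85 at the 3 forskolin times and rose by 0.25 in Rosi3D, Agpat3 rose by 1.52 in Rosi3D, and Elovl5 rose by 0.30 in FSK4h.

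Of 10 other tested prostanoid synthases, 2 rose and 3 fell after FSK4h, 3 and 1 after FSK1D, 5 and 1 after FSK3D, and 5 and 4 after Rosi3D (all genes called: 59.0%, 40.2%, 52.9% and 60.6%), with median log2 changes of -0.15, 0.059, 0.35 and 0.068. The most abundant were Mgst1, Gstm2, Cbr2 and Akr1b8. Mgst1 rose by 1.24 and Cbr2 by 1.36 in Rosi3D, where Gstm2 and Akr1b8 fell by 0.34 and 0.30. Hpgds, the hematopoietic prostaglandin D synthase, is named as an exception chosen after its values were seen, because it made the larger part of the D synthase mRNA. It was at 1.69 to 2.46 CPM in vehicle and 10.01 to 11.52 CPM in Rosi3D (2.35 ± 0.18, edgeR adjusted p = 1.60e-13). Of the mast cell markers given for Hpgd, Cpa3 alone was also clearly higher there, and the part of such cells was not tested.

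Among the 6 genes of prostanoid breakdown and transport, 1 rose and 2 fell after FSK4h, 1 and 1 after FSK1D, and 3 and 3 in both FSK3D and Rosi3D (all genes called: 59.0%, 40.2%, 52.9% and 60.6%), with median log2 changes of -0.059, 0.012, -0.15 and -0.50. Slco2a1, the importer that takes up prostaglandins before Hpgd oxidizes them, had the order of groups seen in Ptgs2. It was at 192 ± 0.596 CPM (SD, n = 3) in vehicle, 462 ± 37.4 after FSK4h, 211 ± 5.48 after FSK1D, 111 ± 4.46 after FSK3D and 52.2 ± 4.48 after Rosi3D. It rose in FSK4h (1.27 ± 0.053, edgeR adjusted p = 3.52e-20) and fell in Rosi3D (-1.88 ± 0.057, adjusted p = 1.04e-23). Ptgr2, a prostaglandin reductase, rose in FSK3D (0.88 ± 0.078) and Rosi3D (1.41 ± 0.077). The exporter Abcc4 rose by 0.72 in both and fell by 0.27 after FSK1D, and Zadh2, another reductase, fell by 0.25 after FSK4h and rose by 0.42 after FSK3D.

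The prostanoid receptor list also counts Ptgfrn, a protein bound to the F receptor and not itself a prostanoid receptor. Of its 7 tested genes, 1 rose and 3 fell after FSK4h, 2 and 2 after FSK1D, 1 and 2 after FSK3D, and 1 and 4 after Rosi3D (all genes called: 59.0%, 40.2%, 52.9% and 60.6%), with median log2 changes of -0.043, 0.086, -0.32 and -1.17. Ptgfr, the receptor of prostaglandin F2α, was at 50.5 ± 3.85 CPM (SD, n = 3) in vehicle, 49.0 ± 2.20 after FSK4h, 126 ± 17.7 after FSK1D, 104.5 ± 4.36 after FSK3D and 22.3 ± 1.86 after Rosi3D. It rose after FSK1D (1.32 ± 0.080) and FSK3D (1.05 ± 0.080), fell after Rosi3D (-1.17 ± 0.086) and differed by 2.22 ± 0.086 between the 3-day groups (edgeR adjusted p = 1.00e-15). Ptger4, a receptor of prostaglandin E2 that couples to cAMP, fell in all 4 treated groups, by 1.12, 1.58, 1.76 and 1.48. Ptger1 fell by 0.68 in FSK4h and rose by 0.38 in Rosi3D. Ptgfrn averaged 277 CPM in vehicle and 330 CPM in FSK4h, and it fell by 1.26 in Rosi3D. Ptger2 and Ptger3 had 50 and 42 counts in all and Ptgdr none, so that they were not tested.

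**Figure D5:**
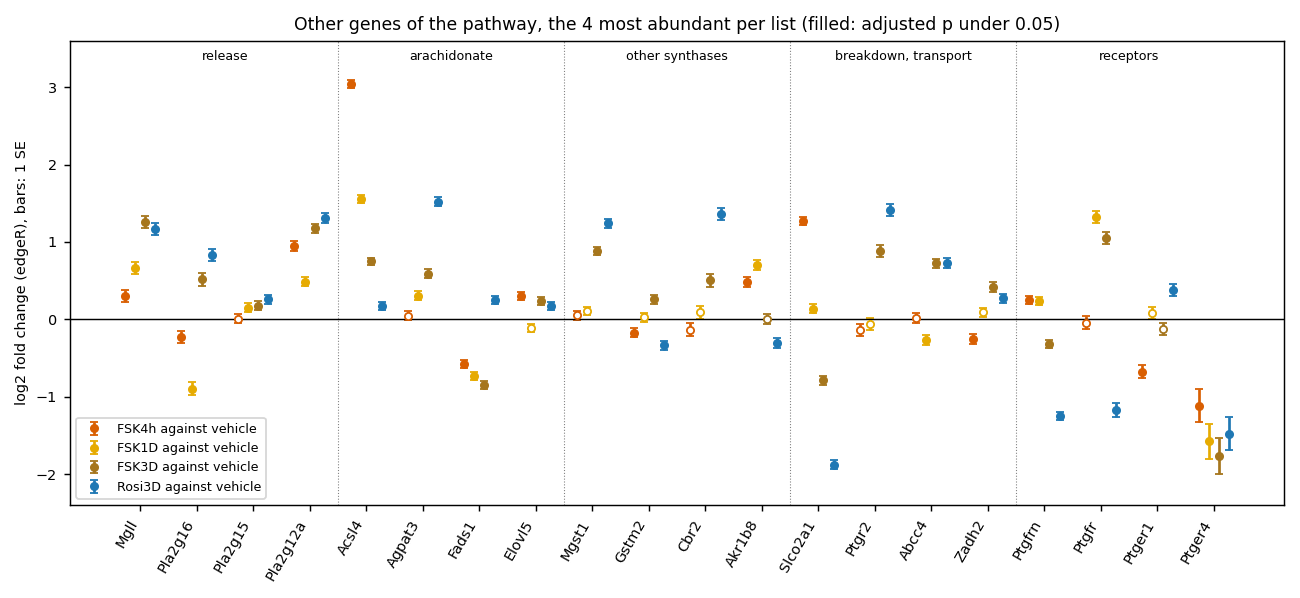
Log2 fold change against vehicle (edgeR, vertical axis) of the 4 most abundant tested genes in each of 5 lists around the 9 enzymes (horizontal axis), with 1 SE (bars); filled points passed an adjusted p of 0.05. Acsl4 (3.04) and Slco2a1 (1.27) stood highest in FSK4h, and Slco2a1 (-1.88) lowest in Rosi3D.

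Of 11 tested lipoxygenase and leukotriene genes, 2 rose and 3 fell after FSK4h, 2 and 4 after FSK1D, 4 and 4 after FSK3D, and 4 and 3 after Rosi3D (all genes called: 59.0%, 40.2%, 52.9% and 60.6%), with median log2 changes of -0.30, -0.27, -0.092 and 0.030. Of its most abundant genes, the glutathione transferase Mgst3 rose by 1.52 after Rosi3D, the dipeptidase Dpep1 rose by 1.21 after FSK3D and fell by 0.60 after Rosi3D, Lta4h fell by 0.33 after FSK3D, and Ggt5 fell by 1.42 after FSK1D. The epoxygenase list is not made of epoxygenases alone, as it also holds the epoxide hydrolases Ephx1, Ephx2 and Ephx3. Of its 10 tested genes, 2 rose and 5 fell after FSK4h, 1 and 2 after FSK1D, 4 and 0 after FSK3D, and 5 and 0 after Rosi3D (all genes called: 59.0%, 40.2%, 52.9% and 60.6%), with median log2 changes of -0.32, -0.19, 0.26 and 0.42. There Ephx2, the soluble epoxide hydrolase, rose by 3.42 in Rosi3D, Ephx1 fell by 0.33 and Cyp2j6 by 0.30 in FSK4h, and Cyp4f16 fell by 0.34 in FSK4h. Cyp2j6 averaged 19.0 CPM in vehicle and 17.3 CPM in Rosi3D. Of 13 known regulators of these enzymes, 7 rose and 2 fell after FSK4h, 5 and 2 after FSK1D, 5 and 3 after FSK3D, and 4 and 6 after Rosi3D (all genes called: 59.0%, 40.2%, 52.9% and 60.6%), with median log2 changes of 0.15, 0.078, 0.026 and -0.044. Cebpb, a factor of the Ptgs2 promoter, rose in all 4 groups, most in FSK4h (1.60), and Elavl1, which stabilizes Ptgs2 mRNA, rose by 0.65 in FSK4h. Anxa1, an inhibitor of phospholipase A2, fell in all 4, by 0.96 after FSK3D, and the glucocorticoid receptor Nr3c1 fell by 0.28 after FSK4h and rose by 0.50 after Rosi3D.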

How the data were processed

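The 15 libraries were made from TRIzol RNA after removal of ribosomal RNA, per the labels' protocols. In the deposited table the authors give raw whole-number read counts per gene and, as an other value, gene length in bases. Reads were handled with fastp, STAR and featureCounts on GRCm38 (mm10), per the submitters' processing notes; the sources used here give no versions, annotation, strand or pair settings. Low counts were mostly even (407 to 539 genes at 1 count and 721 to 907 at 2 per library), so counting intervals used halved counts and cover counting error only.

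Columns name groups and a running library number, so each was an unnumbered library of its group. Within groups no pair agreed to within the sampling noise of independent reads (chi-square per degree of freedom 3.20 to 11.8). These values used unhalved counts, and counting both mates would raise them. Counts were tested in R 4.3.3 with edgeR 4.0.16 (filterByExpr, TMM, robust quasi-likelihood fit of all 15 libraries, 10 residual degrees of freedom, two-sided, Benjamini-Hochberg over 14421 genes, called at 0.05). SE is the log2 fold change over the square root of F. The code was tested on simulated data. DESeq2 1.42.0, limma 3.58.1, other scalings, filters, halved or thinned counts, pairwise fits and leave-one-out fits were alternatives. Positions came from GENCODE vM21, promoter sequences from RefSeq.

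The 9 genes and the lists were chosen with earlier results of these data known. All 9 were named. Also named were the 3 genes with the highest correlation (log2 CPM, prior count 2) to each tested gene, and the 4 tested genes with the highest mean CPM of each list, with exceptions marked in the text. Promoters were printed for Ptgs2 and for genes called in at least 3 of 4 comparisons with vehicle and by at least 2-fold in 1.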

Additional observations from a re-analysis of the deposited data

Results flagged for a closer look

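The forskolin groups differed between times (edgeR contrasts between forskolin groups, adjusted p under 0.05) in 7 of the 8 tested genes. Such calls were common: of all tested genes, 57.3% were called in FSK1D against FSK4h, 51.0% in FSK3D against FSK1D and 68.5% in FSK3D against FSK4h. The number called is thus not a result about this set. These contrasts share the vehicle libraries only through the common fit. Vehicle was a single group whose harvest time is not given, so a changing effect of forskolin and time in culture cannot be told apart. For Ptgs2 the level changed by -1.96 from FSK4h to FSK1D, by -1.85 from FSK1D to FSK3D and by -3.81 from FSK4h to FSK3D on the log2 scale. For Pla2g4a the same differences were -0.25, -0.64 and -0.89. For Ptges3 they were -0.49, -0.29 and -0.79. Ptgs1 was higher in FSK1D than in FSK4h by 0.76 and then lower in FSK3D, by -1.46 against FSK1D and -0.70 against FSK4h. Ptges went up by 0.36 to FSK1D and down by -0.31 to FSK3D. Ptges2 was higher in FSK3D than in FSK1D by 0.44 and than in FSK4h by 0.36. Hpgd, with 4 counts in FSK4h, was higher than there in FSK1D by 2.63 and in FSK3D by 2.48; the latter call was lost without FSK3D S12 (1.63, edgeR adjusted p = 0.207), without FSK4h S5 (2.04, 0.0522) and in limma-voom (1.98, 0.0687).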

How the results depend on the processing

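The alternatives were computed for 64 gene results, of which the 1578 values under alternatives kept direction and call in 1522. In 14 the call was lost, in 6 it was gained and in 36 the sign changed. Each result had 15 leave-one-out fits, for each library in turn. Many left out a library of neither group compared and reached the contrast only through the common fit, so they say little about its robustness. Hpgd had a test result in only 7 or 8 of the 10 other alternatives. Where it had none, no value entered the 1578 and no lost call was counted. No paired analysis was possible because the columns carry no replicate number of the labels, so no replicate block was fitted. Sign changes were confined to values that were not called: Ptgis after FSK4h with RLE factors (0.0057), DESeq2 (0.0073) and thinning (0.83), after FSK1D and FSK3D with thinning (0.48 and 0.55), after Rosi3D with halved counts (0.0037) and thinning (0.85), and after FSK3D against FSK4h with library size alone (0.13); Hpgd after FSK3D with DESeq2 (-0.024) and limma-voom (-0.23); and Ptges2 with library size alone after FSK4h (-0.047) and after FSK1D against FSK4h (0.082). Leaving out 1 library at a time, uncalled changes also crossed 0. Against vehicle, Ptgis ranged from -0.20 to 0.16 after FSK4h, -0.24 to 0.14 after FSK3D and -0.21 to 0.15 after Rosi3D, and Hpgd from -0.20 to 0.77 after FSK1D and -0.77 to 0.62 after FSK3D. For FSK3D against Rosi3D the ranges were -0.025 to 0.076 for Ptges3 and -0.21 to 0.16 for Ptgis, against FSK1D -0.038 to 0.35 for Ptgis and -0.999 to 0.23 for Hpgd, and against FSK4h -0.076 to 0.14 for Ptges and -0.24 to 0.15 for Ptgis. The number of called members then ranged from 5 to 7 after FSK4h, 4 to 6 after FSK3D and 6 to 7 after Rosi3D. On raw counts the Ptgs2 share of cyclooxygenase counts was 83.4% in vehicle, 91.7% after FSK4h, 62.2% after FSK1D, 55.98% after FSK3D and 64.5% after Rosi3D, against 77.7%, 88.4%, 53.2%, 46.8% and 55.7% per kb. Pla2g4a after FSK1D against FSK4h also lost its call with library size alone (-0.085), thinning (-0.18) and the 2 groups alone (-0.24), and Ptges after FSK3D against FSK4h gained one with library size alone (0.23). Depth limited Ptgis, Ptgds and Hpgd.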
